A study of Mus musculus with 18 samples.

Results

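The chemokine ligand genes were examined in small intestinal crypts of mice with an induced deletion of Prmt1 (protein arginine methyltransferase 1) and of their controls. The members were the rows of the gene table whose symbol starts with Ccl, Cxcl, Cx3cl or Xcl followed by a number, with pseudogenes left out. The rule used names and no measured value, and it found 38 of 55335 genes, namely 23 Ccl genes, 13 Cxcl genes, Cx3cl1 and Xcl1. The platelet chemokines Pf4 and Ppbp carry other names and fell outside it.

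KO mice were Prmt1 fl/fl and carried villin-CreERT2, a Cre recombinase made in the intestinal epithelium and switched on by tamoxifen. WT mice were Prmt1 fl/fl littermates without Cre. Mice of both genotypes were 8 to 12 weeks old and were given 2 mg of tamoxifen daily. Crypts were taken after 2 doses at day 2 and after 5 doses at days 7 and 14, so that day and number of doses cannot be told apart between day 2 and the later days. Each of the 6 groups had 3 libraries, 1 per mouse, which gave 18 libraries of total RNA depleted of ribosomal RNA. Because only KO mice carried the Cre, its presence and the loss of Prmt1 cannot be told apart. The villin promoter leaves Prmt1 intact in lymphocytes, stroma and vessels, whose RNA also reaches a crypt preparation.

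Chemokines are small secreted proteins that guide leukocytes through receptors of the G protein-coupled kind. In the small intestine some are made constantly by the epithelium, among them Ccl25 and Ccl28, which draw lymphocytes bearing Ccr9 or Ccr10, and Cx3cl1, a chemokine made as a membrane protein. Others are induced by inflammatory signals, such as Ccl20 downstream of NF-kB and Cxcl9, Cxcl10 and Cxcl11 downstream of interferons. Ccl5, Ccl3, Ccl4 and Xcl1 are made by activated T cells and NK cells, among others.

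Libraries held 12844642 to 31493484 counts, of which the chemokine ligand genes took 0.0399% to 0.0606%. Values are given below as CPM, counts scaled to the size of each library after TMM normalization. The level of Prmt1 was 20.1 to 30.5 CPM in the 9 WT libraries and 13.1 to 17.4 CPM in the 9 KO libraries, with no overlap. The KO over WT log2 fold change of Prmt1 was -0.89 at day 2, -0.59 at day 7 and -0.72 at day 14, with adjusted p-values of 0.0265, 0.00675 and 0.0033 by edgeR's quasi-likelihood test (Benjamini-Hochberg). The 9 epithelial markers checked, such as Epcam and Vil1, summed to 5011 to 9404 CPM per library. The summed level of 15 T cell and intraepithelial lymphocyte markers was 87.6 to 270.4 CPM, that of 14 macrophage and dendritic cell markers was 33.6 to 89.7 CPM and that of 11 B and plasma cell markers was 11.6 to 95.6 CPM, so RNA of immune cells was present in each library.

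Of the 38 members, 16 passed the filter on low counts and were tested, and 22 did not. Ccl12, Ccl19, Ccl21a, Ccl21b, Ccl27b and Cxcl15 had no count in any library. For Ccl12 and Cxcl15 a count of 0 over all libraries allows a level of up to 0.00786 CPM, counting error only. No such limit is given for the other 4, because fragments that align to several places were dropped and 100% of the 100-base stretches of Ccl21b, 97.9% of those of Ccl27b, 50.3% of those of Ccl21a and 41.8% of those of Ccl19 also occur in transcripts of other genes. The other 16 members that were not tested held at most 13 counts in a library and at most 78 in all, the latter being Ccl3. They were Ccl1, Ccl2, Ccl3, Ccl7, Ccl8, Ccl11, Ccl17, Ccl22, Ccl26, Cxcl1, Cxcl2, Cxcl3, Cxcl12, Cxcl13, Cxcl14 and Cxcl17. The neutrophil chemokines Cxcl1, Cxcl2 and Cxcl3 and the monocyte chemokine Ccl2 were thus at the edge of detection in these crypts.

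A few members made up nearly all of the chemokine RNA. Per kilobase of exon, the scale used here to compare genes, Ccl6 was the most abundant at 55.1 ± 21.7 CPM per kb (SD over the 18 libraries), followed by Ccl25 at 32.1 ± 6.44 and Cx3cl1 at 16.9 ± 4.58 CPM per kb. Ccl5 at 11.9 ± 4.42, Ccl28 at 10.3 ± 2.25 and Ccl9 at 8.89 ± 1.31 CPM per kb came next and lay within the spread of each other. Cxcl16 at 3.19 ± 1.34 and Ccl20 at 2.44 ± 3.86 CPM per kb completed the 8 highest, which held 96.5% of the summed level per kilobase of all members. The 8 further tested members, Xcl1, Cxcl11, Ccl24, Ccl4, Cxcl10, Ccl27a, Cxcl9 and Cxcl5, averaged between 0.0996 and 1.09 CPM per kb. The order of the first pair depends on the length used, since the exons of Ccl25 sum to 7445 bases and its longest transcript has 2549. Per kilobase of the longest transcript, a scale added after the data were seen, Ccl25 led at 93.8 ± 18.8 and Ccl6 followed at 68.7 ± 27 CPM per kb. The SDs include differences between groups, and the order was not the same in each. Per kilobase of exon in KO crypts of day 7 Ccl6 averaged 20.4 ± 8.26 CPM per kb (SD, n = 3), below Ccl25 at 32.3 ± 7.14 and within the spread of Cx3cl1 at 23.8 ± 4.77 CPM per kb.

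**Figure D1:**
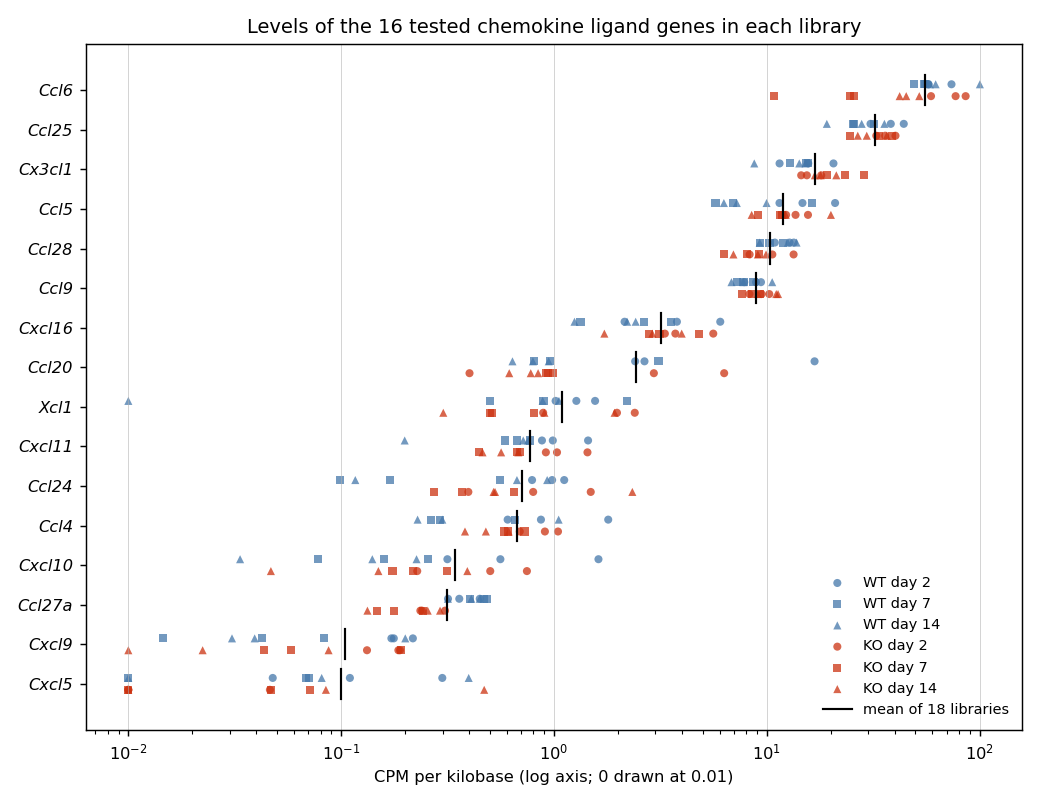
Level of each tested chemokine ligand gene in CPM per kilobase (log axis), 1 point per library, with WT in blue, KO in red, the day as the marker shape and the mean of the 18 libraries as a black line; a library with no count is drawn at 0.01. Ccl6, Ccl25 and Cx3cl1 lead, the KO day 7 libraries of Ccl6 lie below all others, and Ccl20 and Cxcl10 spread widest to the right in day 2 libraries.

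Promoter letters are shown for 4 members on which the results below turn, Ccl6 and Ccl9 as neighbouring genes with different responses and Ccl20 and Cxcl10 as the members with the largest WT differences between days. The choice was made after their values were seen. Each line gives the 250 bases before the RefSeq start of the gene in GRCm38.p6, read 5′ to 3′ on the strand of the gene, with motif matches in capitals. The windows lie at chr11:83593088-83593337 (minus strand) for Ccl6, chr11:83578637-83578886 (minus strand) for Ccl9, chr1:83116516-83116765 (plus strand) for Ccl20 and chr5:92348890-92349139 (minus strand) for Cxcl10.
Ccl6: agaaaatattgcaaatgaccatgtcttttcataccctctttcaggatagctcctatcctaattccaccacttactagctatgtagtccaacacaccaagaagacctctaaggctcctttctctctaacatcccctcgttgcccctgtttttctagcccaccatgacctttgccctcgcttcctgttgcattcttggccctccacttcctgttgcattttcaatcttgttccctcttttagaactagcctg
Ccl9: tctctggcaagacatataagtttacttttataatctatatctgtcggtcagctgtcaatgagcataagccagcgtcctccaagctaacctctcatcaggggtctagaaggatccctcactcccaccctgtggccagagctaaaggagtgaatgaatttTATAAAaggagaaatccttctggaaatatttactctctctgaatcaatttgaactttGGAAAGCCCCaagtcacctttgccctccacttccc
Ccl20: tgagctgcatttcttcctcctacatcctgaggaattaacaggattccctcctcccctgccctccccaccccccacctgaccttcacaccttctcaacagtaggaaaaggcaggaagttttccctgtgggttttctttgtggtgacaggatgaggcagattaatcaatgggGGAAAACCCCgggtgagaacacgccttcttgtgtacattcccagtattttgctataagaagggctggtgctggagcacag
Cxcl10: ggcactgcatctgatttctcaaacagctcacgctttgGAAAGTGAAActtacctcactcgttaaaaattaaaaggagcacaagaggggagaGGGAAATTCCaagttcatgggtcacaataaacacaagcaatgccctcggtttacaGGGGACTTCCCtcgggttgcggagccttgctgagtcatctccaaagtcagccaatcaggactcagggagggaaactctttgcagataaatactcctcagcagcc
The motifs searched were TATAAA on the strand of the gene, the core of an interferon-stimulated response element (GAAA and GAAA with 2 bases between them) on both strands and the kappa B motif on both strands, and matches to one may overlap matches to another. The capitals mark TATAAA and a kappa B match for Ccl9, a kappa B match for Ccl20, and the interferon element core followed by kappa B matches at separate places for Cxcl10, whereas the Ccl6 window held none of them. Among 32851 RefSeq promoters of this length, 7.59% held TATAAA, 2.98% held the interferon element core and 7.25% held a kappa B match. RefSeq windows were matched for 27 members, of which 9 genes had TATAAA in at least 1 window, 3 had the interferon element core and 7 had a kappa B match. These matches describe letters only.

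The main comparison asked which chemokine genes differed between KO and WT crypts at each day. At day 7 Ccl6 and Ccl27a were lower and Cx3cl1 was higher in KO, so 3 of the 16 tested members passed an adjusted p of 0.05 by edgeR's quasi-likelihood test (Benjamini-Hochberg over 21349 genes). Of all tested genes 17.3% passed at day 7, with 7.11% higher and 10.2% lower, so the share of members was near that of all genes. Ccl28 was the 1 further member with an unadjusted p under 0.05 at day 7, which 29.9% of all genes had. At day 2 no member passed (0.0328% of all genes), no member had an unadjusted p under 0.05 (3.33% of all genes), and DESeq2 called 0 members. At day 14 no member passed (7.92% of all genes) and DESeq2 called 0, whereas 6 members, Ccl27a, Cx3cl1, Ccl5, Ccl9, Ccl6 and Ccl28, had an unadjusted p under 0.05 (21.6% of all genes). With the replicate number as a block within each day, a fit added after the data were seen, 2 members passed at day 14, Cx3cl1 and Ccl28 (9.87% of all genes). At day 7 that fit added Ccl28 and called 4226 of 21349 genes. The median log2 fold change of the tested members was -0.14 at day 2, 0.13 at day 7 and 0.15 at day 14, beside -0.0048, 0.016 and 0.0022 over all tested genes. In these bulk samples fewer cells of a type and less RNA per cell cannot be told apart.

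**Figure D2:**
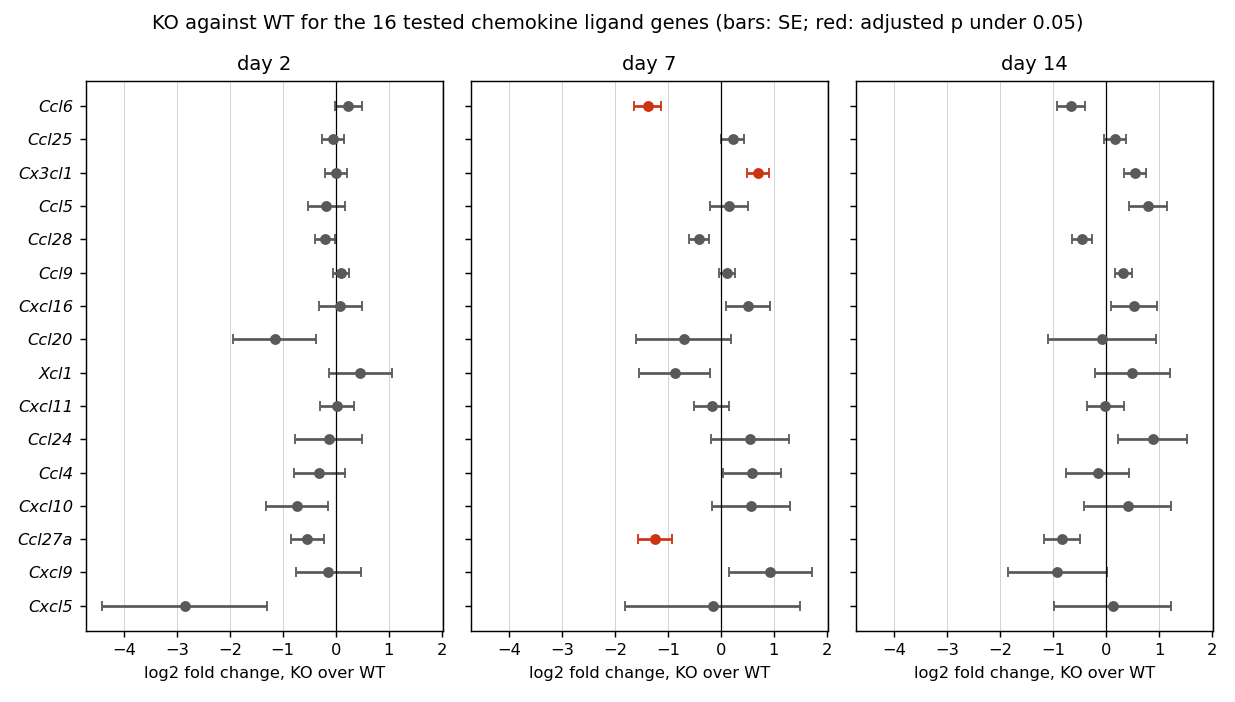
Log2 fold change of KO over WT with its SE for the 16 tested chemokine ligand genes, ordered by level, in 1 panel per day on the same axis; red points have an adjusted p under 0.05. Only Ccl6, Cx3cl1 and Ccl27a are red, all at day 7, and the low members such as Cxcl5 and Ccl20 have the widest bars.

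Ccl6 (chr11:83587882-83593087, minus strand, mm10), a CC chemokine that draws macrophages and other myeloid cells, had the smallest p-value of the members at day 7. Its level at day 7 was 99.5, 88.7 and 98.6 CPM in the WT libraries and 19.5, 44.2 and 46.1 CPM in the KO libraries, so each KO library lay below each WT library by a wide margin. The log2 fold change was -1.38 ± 0.26 (SE), and its adjusted p was 0.00135 in edgeR's quasi-likelihood test. At day 2 the WT libraries held 103, 103 and 133 CPM and the KO libraries 154, 106 and 139 CPM, which overlap. The KO effect at day 7 differed from that at day 2 by -1.62 ± 0.36 on the log2 scale, with an adjusted p of 0.0162 for this interaction in the edgeR fit, and Ccl6 was the 1 member so called (4.37% of all genes were). At day 14 the WT libraries held 180.1, 105 and 112 CPM and the KO libraries 81.2, 93.5 and 75.6 CPM. All KO values were again the lower ones, but the log2 fold change of -0.66 ± 0.26 had an adjusted p of 0.129 in the edgeR test. The change from day 7 to day 14 in the KO effect, 0.72 on the log2 scale, did not pass (adjusted p of 0.999). No member passed in that interaction and none had an unadjusted p under 0.05 (4.46% of all genes did); DESeq2 called 0 members too. Over all genes edgeR called 0 and DESeq2 called 2.

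Ccl9 (chr11:83572919-83578636, minus strand), another CC chemokine of myeloid cells, is the next gene beside Ccl6 among the members and, like it, is bound by Ccr1. Its level at day 7 was 22, 23.7 and 26.4 CPM in WT and 23.3, 28.2 and 26.1 CPM in KO, with groups that overlap. Its log2 fold change was 0.11 ± 0.15 (adjusted p of 0.688 in the edgeR test). At day 14 it was 32.3, 20.8 and 23.7 CPM in WT and 33.8, 34.4 and 27.7 CPM in KO (log2 fold change 0.33 ± 0.15, adjusted p of 0.211 by the same test). Without WT replicate 1 of day 14 this difference passed, with a log2 fold change of 0.53 and an adjusted p of 0.0357. The ratio of Ccl6 to Ccl9 within a library, a comparison chosen after the values were seen, averaged 2.00 ± 0.16 on the log2 scale in WT and 0.40 ± 0.58 in KO at day 7. It averaged 2.35 ± 0.12 in WT and 1.39 ± 0.10 in KO at day 14, and 2.08 ± 0.14 in WT and 2.21 ± 0.18 in KO at day 2. These ratios are a description with no test, since the pair was chosen for its difference in response. The receptor gene Ccr1 was too low to test, at 0.0527 to 1.16 CPM.

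**Figure D3:**
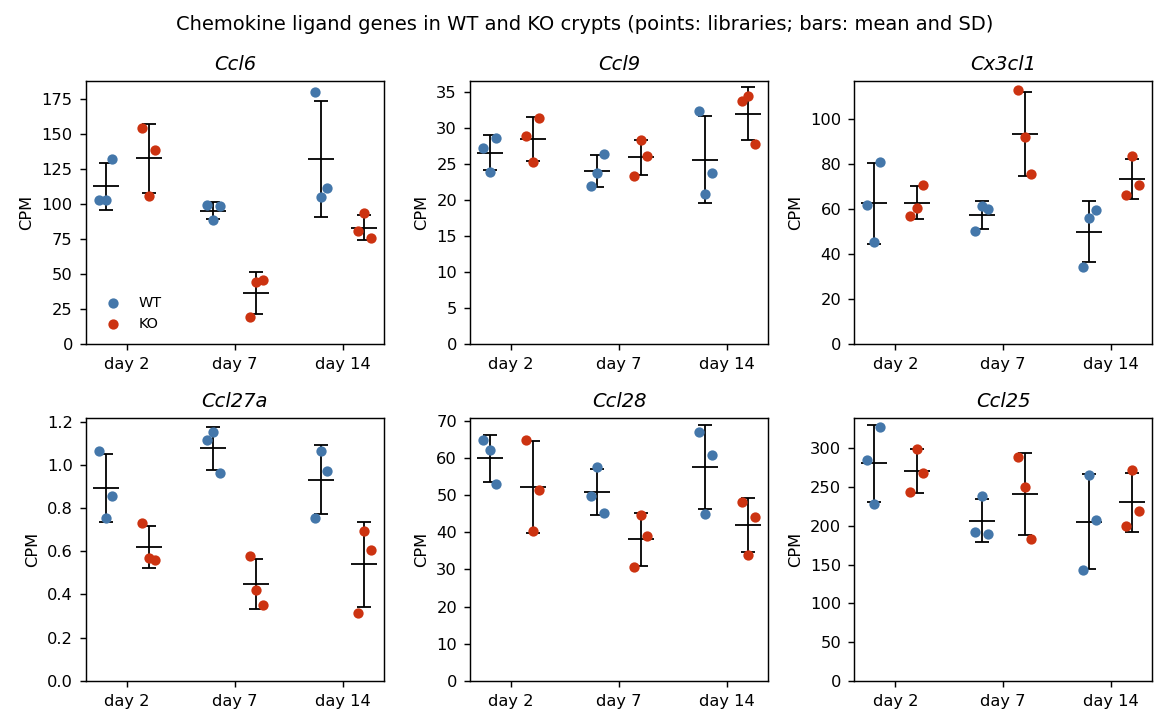
Levels in CPM of Ccl6, Ccl9, Cx3cl1, Ccl27a, Ccl28 and Ccl25 at days 2, 7 and 14, with 1 point per library, WT in blue and KO in red, and bars for the mean and SD of each group of 3. The KO points of Ccl6 at day 7 (19.5 to 46.1 CPM) lie below all WT points, those of Cx3cl1 at days 7 and 14 lie above the WT points of the same day, and those of Ccl27a lie below the WT points at each day.

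Markers of Paneth and stem cells fell in the same libraries as Ccl6. Of 10 Paneth cell markers, among them the lysozyme gene Lyz1, 9 were lower in KO at day 7 and none was higher, with a median log2 fold change of -1.99. Of all genes 10.2% were lower and 7.11% higher at day 7, and 4.69% were lower and 3.23% higher at day 14, which is the background of the marker counts given here. Their summed level was 11478, 9293 and 15524 CPM in the WT libraries and 1474, 4103 and 3931 CPM in the KO libraries of day 7. At day 14, when 2 of the 10 were lower (Mmp7 passed as well with numbers paired within the day), the sum was 20999.9, 12264 and 9547 CPM in WT and 7274, 7408 and 5646 CPM in KO. The WT library with the highest Ccl6 of all, replicate 1 of day 14, also had the highest sum, and the KO library with the lowest Ccl6, replicate 1 of day 7, had the lowest sum. Within groups Ccl6 and the sum did not always keep the same order. At day 14 WT replicate 3, with the lowest WT sum, had 112 CPM of Ccl6 against 105 CPM in WT replicate 2. At day 2 the lowest WT sum was 7368 CPM, while Ccl6 was at least 103 CPM in each WT library. Of 9 stem cell markers, among them Lgr5, 7 were lower in KO at day 7 and none was higher, with a median of -1.23, and their sum was 1834 to 2443 CPM in WT and 516.1 to 1190.4 CPM in KO. Over the same 18 libraries Ccl9 ranged from 20.8 to 34.4 CPM. Other cell types of the crypt were counted in the same libraries. Of 13 enteroendocrine markers, such as Chga, 12 were higher at day 7 and 12 at day 14, with medians of 1.12 and 1.33. At day 7, 3 of 9 tested goblet cell markers (Spink4, Fcgbp and Clca1) and 2 of 10 tuft cell markers (Dclk1 and Alox5) were lower. Of 12 enterocyte markers 2 (Fabp1 and Fabp2) were higher and 1 (Lct) was lower at day 7. The median log2 fold change was -0.56 for the tuft cell list and 0.17 for the goblet cell list at day 7. That of the enterocyte list was 0.66 at day 7 and 0.81 at day 14, and its sum was 10373 to 13034 CPM in WT and 15275 to 23161 CPM in KO at day 7, without overlap. The part of any of these cells in the Ccl6 result was not tested.

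**Figure D4:**
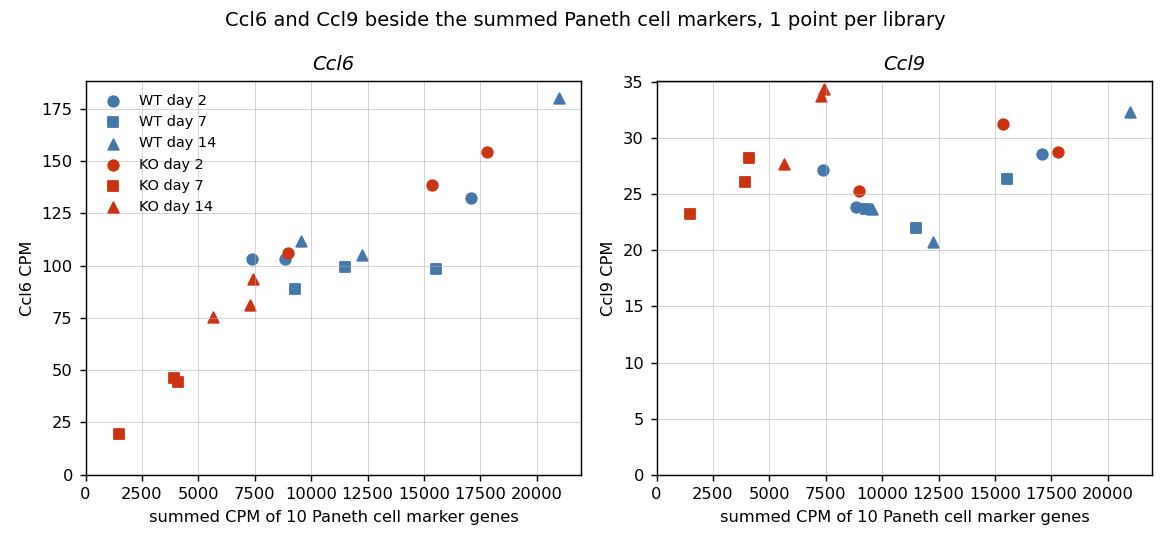
Level of Ccl6 (left) and Ccl9 (right) in CPM against the summed CPM of 10 Paneth cell marker genes, 1 point per library, with genotype as colour and day as marker. Ccl6 is lowest in the KO day 7 libraries with the smallest sums (1474 to 4103 CPM), whereas Ccl9 stays between 20.8 and 34.4 CPM over the whole range of sums.

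Cx3cl1 (chr8:94772009-94782427, plus strand), also called fractalkine, was the member that rose. At day 7 its level was 50.3, 61.4 and 60.2 CPM in the WT libraries and 113, 91.7 and 75.5 CPM in the KO libraries, which do not overlap. The log2 fold change was 0.70 ± 0.21, and its adjusted p was 0.0252 by edgeR's quasi-likelihood test. The call held without KO replicate 3 but was lost without WT replicate 1, 2 or 3 or KO replicate 1 or 2, with adjusted p-values of 0.0521 to 0.116. At day 14 the WT libraries held 34.3, 55.9 and 59.8 CPM and the KO libraries 66.1, 83.4 and 70.4 CPM. The groups were again apart, and the log2 fold change of 0.55 ± 0.21 had an adjusted p of 0.124. With replicate numbers paired within the day, a pairing read from these same counts, it was 0.58 with an adjusted p of 0.0446 in edgeR. This is no independent support for a difference at day 14. At day 2 the groups overlapped (45.1 to 80.9 CPM in WT, 57.1 to 70.9 CPM in KO) with a log2 fold change of 0.0075 ± 0.21. The KO effect at day 7 exceeded that at day 2 by 0.70 ± 0.29 on the log2 scale, which did not pass in edgeR's test (adjusted p of 0.210). The receptor gene Cx3cr1, borne by macrophages and some lymphocytes, was low at 0.114 to 0.916 CPM and had a log2 fold change of 0.38 at day 7 with an adjusted p of 0.674.

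Cx3cl1 lies between Ccl22 (chr8:94745590-94751699) and Ccl17 (chr8:94810453-94812036), whose proteins share the receptor Ccr4. Both were too low to test. At day 7 Ccl22 had 1, 1 and 10 counts in WT and 6, 8 and 8 in KO, and Ccl17 had 0, 1 and 1 counts in WT and 2, 4 and 4 in KO. Ccr4, the gene of their receptor on T cells, was itself higher in KO at day 7, at 0.144, 0.128 and 0.481 CPM in WT and 0.755, 0.596 and 1.74 CPM in KO. Its log2 fold change was 1.98 ± 0.62 (adjusted p of 0.0328 by edgeR), and the call was lost, with an adjusted p of up to 0.149, without WT replicate 1, WT replicate 2 or KO replicate 3. Ccr4 passed the filter on low counts only through its KO day 7 libraries, since it was at most 0.481 CPM in every other group. The call is therefore not independent of the filter. At day 14 the log2 fold change of Ccr4 was -1.47 (adjusted p of 0.379 by edgeR). In KO replicate 3 of day 7, the library with the highest Ccr4, B and plasma cell markers summed to 80.4 CPM, against 25.9 and 23.6 CPM in the other KO libraries of that day, and the part of lymphoid tissue in the Ccr4 level was not tested.

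Ccl27a and Ccl28 both act through Ccr10, a receptor of plasma cells and skin-homing T cells, and Ccl28 is the mucosal ligand. Ccl27a (chr4:41769467-41774247, minus strand) was low, with 6 to 31 counts per library. At day 7 it was 1.11, 1.15 and 0.963 CPM in WT and 0.578, 0.421 and 0.349 CPM in KO, with a log2 fold change of -1.25 ± 0.32 and an adjusted p of 0.0105 by edgeR's quasi-likelihood test. KO libraries were below WT libraries at day 2 (0.560 to 0.731 against 0.755 to 1.06 CPM) and at day 14 (0.316 to 0.693 against 0.755 to 1.06 CPM) as well. The log2 fold changes were -0.53 at day 2 and -0.83 at day 14, with adjusted p-values of 0.999 and 0.149 in the same fit. The KO effects at days 7 and 2 did not differ past the threshold (adjusted p of 0.440). The Ccl27a count is uncertain, because 50.2% of the 100-base stretches of its longest transcript also occur in transcripts of Gm13306, Gm20878, Gm21586 or Gm21953 and fragments that align to several places were not counted.

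Ccl28 (chr13:119623819-119654359, plus strand) was 49.9, 57.5 and 45.2 CPM in WT and 30.6, 44.6 and 39.1 CPM in KO at day 7. The groups were apart, but the log2 fold change of -0.41 ± 0.19 had an adjusted p of 0.142 in edgeR's test. Ccl28 passed at day 7 with the replicate block within each day, though the numbers were not taken to pair the mice at that day. At day 14 it was 66.9, 44.9 and 60.9 CPM in WT and 48.1, 33.8 and 44 CPM in KO (log2 fold change -0.45 ± 0.19, adjusted p of 0.158 by the same test). The groups overlapped, but each KO library was below the WT library of the same number, and with numbers paired within the day Ccl28 passed (log2 fold change -0.45, adjusted p of 0.0461 in edgeR). At day 2 the groups overlapped, with 52.9 to 64.9 CPM in WT and 40.2 to 64.8 CPM in KO. The shared receptor gene Ccr10 fell at day 7, from 1.29, 0.511 and 1.05 CPM in WT to 0.178, 0.105 and 0.218 CPM in KO, with a log2 fold change of -2.54 ± 0.45 and an adjusted p of 0.000687. Its KO effect at day 7 also differed from that at day 2, by -2.31 on the log2 scale (adjusted p of 0.0378 for the interaction in edgeR). This difference held in 3 of 12 fits that left out a library, those without WT replicate 2 of day 2, WT replicate 2 of day 7 or KO replicate 3 of day 7, and was otherwise lost with an adjusted p of up to 0.106. At day 14 the log2 fold change of Ccr10 was -0.87 (adjusted p of 0.253). None of the 10 tested B and plasma cell markers passed at day 7. Their sum over the list was 33.6 to 39.4 CPM in WT and 23.6 to 80.4 CPM in KO.

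Ccl25 (chr8:4325210-4360020, plus strand) is the epithelial chemokine that homes T cells and plasma cells to the small intestine. It held the second highest level per kilobase of exon and was among the steadiest members. Its CPM at day 7 were 192, 238 and 189 in WT and 289, 250.4 and 184 in KO, and the groups overlapped at each day. The log2 fold changes were -0.05 ± 0.21 at day 2, 0.22 ± 0.21 at day 7 and 0.17 ± 0.21 at day 14, with adjusted p-values of 0.999, 0.534 and 0.729 by edgeR's test. Its receptor gene Ccr9 was 20.6, 14.1 and 14.4 CPM in WT and 9.51, 10.2 and 12 CPM in KO at day 7. All 3 KO values were below the WT values, with a log2 fold change of -0.63 ± 0.18 and an adjusted p of 0.0210. This call was lost without WT replicate 1, KO replicate 1 or KO replicate 2 of day 7, with an adjusted p of up to 0.154. Exons of Gm17021 on the other strand overlap 18.8% of the Ccr9 length, so its level is uncertain. At day 14 Ccr9 was 11.2, 16.7 and 18.6 CPM in WT and 14.8, 17.5 and 16.6 CPM in KO.

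Ccl5 (chr11:83525778-83530518, minus strand), also called RANTES, is a product of cytotoxic T cells. At day 14 it was 6.04, 6.94 and 9.58 CPM in WT and 11.8, 19.2 and 8.15 CPM in KO, with a log2 fold change of 0.79 ± 0.36 and an adjusted p of 0.217 by edgeR's test. At day 7 it was 15.6, 6.64 and 5.51 CPM in WT and 8.71, 11.4 and 11.1 CPM in KO, and at day 2 the groups overlapped too, with 11 to 20.1 CPM in WT and 11.8 to 15 CPM in KO. None of the 15 T cell and intraepithelial lymphocyte markers passed at any of these days, though Cd7 did at day 14 with numbers paired within the day (log2 fold change 0.98, adjusted p of 0.0263 in edgeR). Their median log2 fold change at day 14 was 0.60. The markers summed to 105.4 to 136.5 CPM in WT and 145.0 to 242.6 CPM in KO at day 14, and KO replicate 2, with the highest Ccl5 of that day, had the highest sum. The part of lymphocyte number in the Ccl5 level was not tested. Xcl1 and Ccl4, further products of these cells, had 0 to 24 and 2 to 32 counts per library and no call in KO against WT at any day, and exons of Gm20743 on the other strand overlap 18.7% of the Xcl1 length.

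Cxcl16 (chr11:70453983-70459984, minus strand), like Cx3cl1 made as a membrane protein, binds Cxcr6 on T cells. It was 4.03, 7.98 and 10.8 CPM in WT and 14.5, 8.49 and 9.47 CPM in KO at day 7, which overlap, with a log2 fold change of 0.52 ± 0.42 and an adjusted p of 0.448 by edgeR's test. At day 14 it was 3.77, 6.67 and 7.31 CPM in WT and 5.21, 12 and 8.76 CPM in KO, and at day 2 it was 18.3, 6.49 and 11.4 CPM in WT and 11.2, 10.03 and 16.9 CPM in KO. Cxcr6 was steadier, at 2.83 to 4.62 CPM over all libraries with no call. Exons of Cxcl16 overlap those of Zmynd15 on the other strand over 18.3% of its length, and counting ignored strand.

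The members were next compared between days within WT crypts. In WT crypts the tested members were lower at day 7 than at day 2 in 15 of 16 cases by sign, with a median log2 fold change of -0.68 beside 0.014 over all genes, and the median at day 14 against day 2 was -0.74 with 13 of 16 negative. These signs come from the same libraries and are not separate cases. Members near the filter on low counts, such as Cxcl9, may have entered the test through their day 2 counts. No member passed the threshold of edgeR's quasi-likelihood test at day 7 against day 2 (0.553% of all genes) or day 14 against day 2 (1.61%), and 6 members had an unadjusted p under 0.05 in each, beside 22.5% and 20% of all genes. DESeq2 called 0 members at day 7 against day 2 and 2, Ccl20 and Ccl5, at day 14 against day 2. Between WT days 14 and 7 edgeR and DESeq2 called 0 members (0.0796% of all genes in edgeR) and 0 had an unadjusted p under 0.05 (5.18%). The 3 WT comparisons share libraries. Some other lists also had negative medians in WT at day 7 against day 2. At day 14 the fibroblast and muscle list did not. At day 7 against day 2 the median log2 fold change was -0.63 for the 15 T cell and intraepithelial lymphocyte markers, -0.87 for the 12 enterocyte markers, -0.78 for the 13 fibroblast and muscle markers and -0.94 for the 15 interferon gamma response genes, and at day 14 against day 2 it was -0.86, -1.13, 0.019 and -0.59 in that order. At day 7, 3 of the interferon gamma response genes passed and no gene of the other 3 lists did, and at day 14, 1 of these genes and the enterocyte genes Slc5a1 and Fabp2 passed, all of them lower. The summed T cell and intraepithelial lymphocyte markers were 177.1 to 262.6 CPM in WT at day 2, 87.6 to 196.5 CPM at day 7 and 105.4 to 136.5 CPM at day 14. Not all lists went this way. The median log2 fold change of the 10 tested B and plasma cell markers was -0.31 at day 7 and 0.58 at day 14. The median WT sum at days 2, 7 and 14 was 38.3, 46 and 47.4 CPM for neutrophil and mast cell markers. For macrophage and dendritic cell markers it was 45, 36.7 and 62.6 CPM. The part of these cells and signals in the chemokine levels between days was not tested.

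Ccl20 (chr1:83116766-83119167, plus strand), which draws Ccr6-bearing B and T cells and is the follicle-associated chemokine of the gut, had the largest SD relative to its mean over the 18 libraries among the tested members. In WT it was 23.8, 3.42 and 3.78 CPM at day 2, 1.15, 4.41 and 1.36 CPM at day 7 and 1.13, 0.907 and 1.34 CPM at day 14. In KO it was 4.19, 0.570 and 8.96 CPM at day 2, 1.33, 1.40 and 1.31 CPM at day 7 and 1.11, 1.2 and 0.876 CPM at day 14. A single WT library of day 2 thus stood far above the rest, while the other day 2 values reached down to 0.570 CPM in KO. The WT log2 fold change was -2.23 ± 0.83 at day 7 against day 2 (adjusted p of 0.144 by edgeR) and -3.20 ± 0.90 at day 14 against day 2 (adjusted p of 0.0737). Its promoter is one of those printed above with a kappa B match. KO and WT did not differ past the threshold at any day, and at day 2 the log2 fold change of -1.15 ± 0.78 became 0.36 without WT replicate 1. Ccr6 was 0 to 1.31 CPM with no call.

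Cxcl10 (chr5:92346638-92348889, minus strand), Cxcl9 (chr5:92321347-92328079, minus strand) and Cxcl11 (chr5:92359544-92365485, minus strand) lie close together and share the receptor Cxcr3 of activated T cells. In WT, Cxcl10 was 3.65, 0.711 and 1.26 CPM at day 2, 0.359, 0.575 and 0.175 CPM at day 7 and 0.0755, 0.316 and 0.509 CPM at day 14, so each later value lay below each day 2 value. The log2 fold change was -2.39 ± 0.67 at day 7 (adjusted p of 0.0708) and -2.51 ± 0.68 at day 14 (adjusted p of 0.0588) against day 2 by edgeR's test. Without WT replicate 2 of day 2, Cxcl10 passed in both comparisons and Ccl20 in the second. Cxcl9 was 0.655, 0.533 and 0.519 CPM in WT at day 2 and 0.252, 0.128 and 0.0438 CPM at day 7 (log2 fold change -1.90 ± 0.72, adjusted p of 0.135 by the same test). At day 14 against day 2 the WT log2 fold change of Cxcl9 was -1.28 ± 0.69 (adjusted p of 0.310 by the same test). Cxcl11 was 5.49, 3.33 and 3.75 CPM in WT at day 2 and 2.55, 2.94 and 2.23 CPM at day 7, again without overlap (log2 fold change -0.71 ± 0.33, adjusted p of 0.209). Exons of Cxcl11 overlap those of Gm2673 on the other strand over 41.7% of its length, so its level is uncertain. KO against WT, the log2 fold changes at day 7 were 0.93 for Cxcl9, 0.57 for Cxcl10 and -0.18 for Cxcl11, with adjusted p-values of 0.462, 0.659 and 0.784. Cxcr3 was 0.151 to 1.39 CPM with no call.

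**Figure D5:**
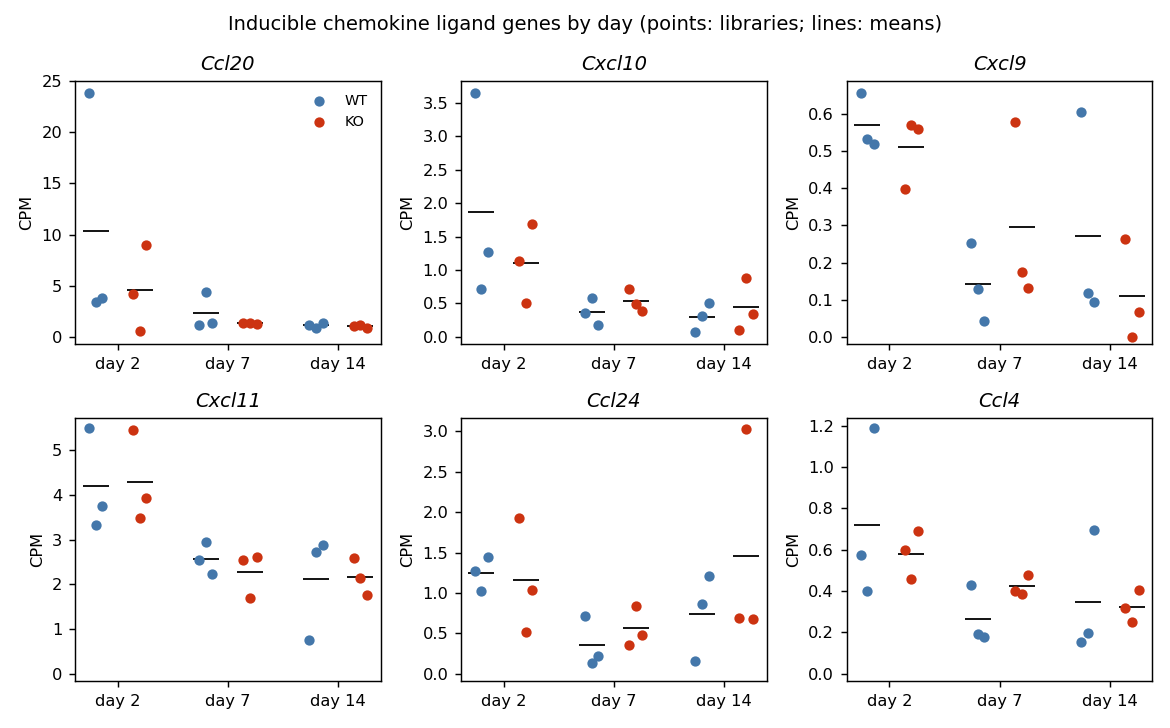
Levels in CPM of Ccl20, Cxcl10, Cxcl9, Cxcl11, Ccl24 and Ccl4 at days 2, 7 and 14, with 1 point per library, WT in blue, KO in red and lines for the group means. WT Cxcl10 and Cxcl11 values at day 7 lie below all WT values at day 2, and 1 WT library of day 2 reaches 23.8 CPM of Ccl20.

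Ccl24, the eosinophil chemokine eotaxin-2, was 1.27, 1.02 and 1.45 CPM in WT at day 2 and 0.719, 0.128 and 0.219 CPM at day 7 (log2 fold change -1.68 ± 0.69, adjusted p of 0.167 by edgeR). At day 14 against day 2 the WT log2 fold change of Ccl24 was -0.66 ± 0.64 (adjusted p of 0.602 by edgeR). Its receptor gene Ccr3 was 0 to 0.0926 CPM. Cxcl5, a neutrophil chemokine, had 0 to 16 counts per library, and its log2 fold change in KO at day 2, -2.85 ± 1.56, had an adjusted p of 0.999. Its KO and WT values did not overlap at day 2, as was the case for 2 members at that day, Cxcl5 and Ccl27a (8.16% of all genes), 4 at day 7 (33.6%) and 3 at day 14 (26.5%).

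Signals known to act on chemokine genes were followed with fixed lists. Of 17 NF-kB pathway and feedback genes, all tested, 4 were higher and 1 was lower in KO at day 7, with a median log2 fold change of 0.16. Of all genes 7.11% were higher and 10.2% lower at that day, and 3.23% were higher and 4.69% lower at day 14. These shares are also the background of the counts that follow. The genes called at day 7 were Tnip1 at 0.98 (adjusted p of 0.000163 by edgeR), Tnfaip2 at 1.64 (0.00948), Icam1 at 1.00 (0.0452) and Nfkb2 at 0.44 (0.0265), and the inhibitor of apoptosis gene Birc3 at -0.57 (0.00432). At day 14 Tnip1 (0.61) and Nfkb2 (0.49) were higher. Tnip1, an inhibitor of NF-kB signalling, and Birc3 kept their day 7 calls with each library left out in turn, whereas Tnfaip2 lost it without WT replicate 1, Icam1 without WT replicate 1, 2 or 3 or KO replicate 1, and Nfkb2 without WT replicate 1, 2 or 3 or KO replicate 3. At day 14 Tnip1 lost its call without WT or KO replicate 1, and Nfkb2 without WT replicate 1 or 2 or KO replicate 1 or 2. At day 7 Icam1 also held in 7 of 8 and Nfkb2 in 6 of 8 other processing settings.

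Of 15 genes of the interferon gamma response, 6 were higher in KO at day 7 and none was lower, with a median log2 fold change of 0.55 beside -0.35 at day 2 and -0.15 at day 14. Among the 6 were the GTPase genes Igtp at 2.36 (adjusted p of 0.0152 by edgeR), Iigp1 at 3.54 (0.0213) and Irgm2 at 1.37 (0.0256). Each of these 3 lost its call without KO replicate 1 of day 7, with adjusted p-values of 0.0702, 0.185 and 0.149, and also without WT replicate 2 or WT replicate 3. KO replicate 1 held 76 CPM of Igtp, against 18.1 and 12.6 CPM in the other KO libraries and 4.53 to 9.88 CPM in WT. The same library had the highest Cxcl9 among the KO libraries of that day, 0.578 CPM against 0.175 and 0.131 CPM. This is a low level in a single library, and neither Cxcl9 nor Cxcl10 nor Cxcl11 passed in KO against WT at day 7. The part of interferon signals in the Cxcl9 level was not tested.

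Of 17 cytokine genes that induce chemokines 6 passed the filter. Il18 was higher in KO at day 7 by 0.85 and at day 14 by 1.23 on the log2 scale, with adjusted p-values of 0.000687 and 5.61e-05 by edgeR's test, and kept both calls with each library left out. Il33 was higher at day 7 by 1.36 (adjusted p of 0.00541), and at day 14 its log2 fold change was 0.96 (adjusted p of 0.0786, or 0.0177 with numbers paired within the day). Of the 13 cytokine receptor genes of the epithelium, Ltbr was higher at day 7 by 0.68 (adjusted p of 0.0312) and Il17re at day 14 by 0.85 (adjusted p of 0.0389). Each of these receptor calls held in 1 of the 6 fits that left out a library, that of Ltbr without KO replicate 3 and that of Il17re without KO replicate 1.

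Among the 18 chemokine receptor genes 11 were tested, and Ccr10, Ccr9 and Ccr4 were the 3 called at day 7, beside 17.3% of all genes, with none called at days 2 and 14. Of these, Ccr4 was tested only through its KO day 7 libraries. Ccr1, Ccr3, Ccr7, Ccr8, Cxcr1, Cxcr2 and Xcr1 were too low to test. Of the 6 atypical and scavenging receptor genes, Ackr4, which takes up Ccl25 and other chemokines without signalling through G proteins, was at 16 to 42.4 CPM, with log2 fold changes of -0.22 at day 7 and 0.067 at day 14 and no call. Exons of the more highly counted Acad11 on the other strand overlap 8.9% of the Ackr4 length, so its level is uncertain. Stab1, a scavenger receptor of macrophages and vessels, was higher in KO at day 7 by 0.85 (adjusted p of 0.0308) and at day 14 by 1.15 (adjusted p of 0.00939), the latter in 7 of 8 other processing settings. Its calls were lost without WT replicate 1, WT replicate 2, KO replicate 1 or KO replicate 3 at day 7 and without WT replicate 2 at day 14. Of the 12 tested macrophage and dendritic cell markers, Mrc1 alone passed at day 7, at 2.10 (adjusted p of 0.00743), and of the 8 tested endothelial and lymphoid stroma markers Pecam1 (1.29) and Egfl7 (0.63) were higher at day 7 and Egfl7 (0.61) at day 14. The call of Pecam1 was lost without WT replicate 1, 2 or 3 or KO replicate 3 of day 7, and the day 14 call of Egfl7 without WT replicate 1 or KO replicate 3. The summed level of the 11 endothelial and lymphoid stroma markers was 21.5 to 23 CPM in WT and 26.3 to 31.6 CPM in KO at day 7, and 19.4 to 27.2 against 26.7 to 31.2 CPM at day 14. The sum weighs the most highly counted genes most and does not show that each marker rose. The part of macrophage and vessel RNA in the Stab1 result was not tested.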

How the data were processed

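The deposited counts per gene cover 18 libraries in 1 table, which the authors made with STAR 2.7.3 alignments to mm10 and featureCounts 1.6.4, whose header names GENCODE release 23 while the study names release M26. Per the file header, fragments were counted without strand, once for each gene they overlapped, and multiply aligned fragments were dropped. The counts are whole numbers without normalization, and 0 columns were left unused.

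The 20 genes that the study set aside because they differed between male and female mice were removed before normalization; the labels give no sex per library, so it was not a term. Genes were kept with filterByExpr and scaled by TMM in edgeR 4.0.16, which left 21349 genes. All 18 libraries were fitted with 1 mean per group by the robust quasi-likelihood method (R 4.3.3), with an adjusted p threshold of 0.05 (Benjamini-Hochberg over all tested genes). The study used DESeq2, which served here (1.42.0) as an alternative. Other alternatives were DESeq2 size factors, no filter, a mean count of at least 50, the 20 set-aside genes kept, the 20 most abundant genes left out, the compared groups alone, a replicate block and each library left out. At day 14 the deviations of same-numbered KO and WT libraries from their group means correlated at 0.227, 0.180 and 0.159, each above 0.1, so the numbers were taken to pair those libraries; this comes from the data, since the labels do not say what a number marks. The replicate block within each day that follows from it was added after the data were seen. The script was tested on simulated data.

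CPM per kb divides by the exon length in the table. Members described by library are those called in any comparison or among the 8 highest per kilobase; others are given by range (Cxcl9, Cxcl10, Cxcl11, Ccl24, Ccl17 and Ccl22 are given by library too, chosen after their values were seen), and receptors and list genes by their calls, and some list genes are not reported here. The members and lists were chosen with earlier results of these data known. Promoters are from RefSeq (GRCm38.p6); shared stretches of 100 bases were counted in GENCODE M21 transcripts. Intervals from counts cover counting error only.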

Additional observations from a re-analysis of the deposited data

Results flagged for a closer look

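The KO effect of Ccl6 differed between days, by -1.62 on the log2 scale at day 7 against day 2 in edgeR's interaction test. The KO effect of Ccr10, the receptor gene of Ccl27a and Ccl28, differed in the same comparison by -2.31. Among the signal lists, the KO effects that differed between day 7 and day 2 included those of the NF-kB feedback gene Tnip1 (1.08), the cytokine gene Il33 (1.62) and the interferon gamma response genes Irgm1 (0.93), Irgm2 (2.31), Igtp (3.58) and Iigp1 (5.03), all on the log2 scale. The differences of Ccl6 and Tnip1 held in 12 of 12 fits that left out a library. Those of Igtp and Irgm2 held in 7 of 12 and were lost without WT replicate 3 or KO replicate 1 or 3 of day 2 or WT replicate 2 or 3 of day 7. Those of Irgm1 and Iigp1 were lost without any of these too, and also without WT replicate 1 or 2 of day 2 or KO replicate 1 of day 7, Irgm1 further without WT replicate 1 of day 7 and Iigp1 without KO replicate 2 of day 2. Il33 held in 4 and Ccr10 in 3 of the 12. Il33 lost its call without WT replicate 1 or 3 or KO replicate 1 or 2 of day 2 or of day 7. In other processing settings the calls held in 7 of 8 for Igtp and Irgm1, 6 of 8 for Irgm2 and Il33, 5 of 7 for Iigp1 and Ccr10, and 8 of 8 for Ccl6 and Tnip1. No group had the 4 libraries needed to look for a single library far from the others.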

How the results depend on the processing

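Ccl6 at day 7 passed in 8 of 8 other settings (adjusted p of 3.81e-06 to 0.0085) and in 6 of 6 fits without 1 library (log2 fold change -1.55 to -1.06). Ccl27a passed in 7 of 7 settings that could test it and 6 of 6 fits without 1 library. Cx3cl1 passed in 8 of 8 settings but in 1 of 6 fits without 1 library. The Ccl6 difference between days 7 and 2 passed in 8 of 8 settings and 12 of 12 fits without 1 library.

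A replicate block shared by all days gave 0, 3 and 0 called members for KO against WT at days 2, 7 and 14, 1 for the KO effect at day 7 against day 2, and 0 in the other 4 comparisons, which changed no count. A replicate block within each day, added after the data were seen, gave 0, 4 and 2 called members at days 2, 7 and 14, and 1 and 0 for the differences in KO effect. It added Ccl28 at day 7 and Cx3cl1 and Ccl28 at day 14, and lost none. Same-numbered KO and WT libraries correlated at 0.0478, 0.158 and 0.381 at day 2 and at -0.159, 0.206 and 0.0787 at day 7, so not every pair was above 0.1 and the numbers were not taken to pair the mice there.

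Without a filter on low counts, 1 member passed in KO against WT at day 14 (Cx3cl1) and 2 passed in WT day 14 against day 2 (Cxcl10 and Cxcl11). In WT day 14 against day 2, DESeq2 called 2 (Ccl20 and Ccl5) and a mean count of at least 50 left 1 (Ccl20). With 1 library left out, the count ranged from 0 to 1 for KO against WT at day 14, from 0 to 1 for WT day 7 against day 2 and from 0 to 2 for WT day 14 against day 2. The causes were not tested.

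Some directions turned among results that were not called. The Cx3cl1 log2 fold change at day 2 was -0.0024 without a filter, and with 1 library left out it ranged from -0.18 to 0.23. In such fits Ccl25 ranged from -0.18 to 0.066 at day 2 and from -0.035 to 0.40 at day 14, Ccl5 from -0.36 to 0.075 at day 2 and from -0.12 to 0.78 at day 7, Cxcl16 from -0.21 to 0.51 at day 2, and Ccl20 from -2.14 to 0.36 at day 2, from -1.05 to 0.11 at day 7 and from -0.23 to 0.098 at day 14. For the 9 members described under the naming rule, over KO against WT and the Ccl6 difference between days 7 and 2 and leaving aside the block within each day, 372 values kept their direction and side of the threshold, 5 lost a call (Cx3cl1 at day 7), 2 gained one and 16 turned. Receptors and list genes are not in this tally, and the calls they lost stand beside their values. Members under 1 CPM had few counts, and differences in them were not detectable at this depth unless large.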
